A study of Mus musculus with 192 samples.

Results

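The genes Cxcl9, Cxcl10 and Cxcl11 encode the chemokines that bind the receptor Cxcr3. They were found by symbol in the count table, where they are 3 of 23481 genes, and all 3 were among the 4720 genes that passed the filter on low counts. RNA was sequenced from dendritic cells grown with GM-CSF at 15 ng/mL from the bone marrow of female C57BL/6J mice that were 6 to 8 weeks old, and all groups share this source. Wells of 100000 cells were left for 6 hours with ligands of pattern recognition receptors, the sensors that let innate immune cells recognise microbes. There were 64 groups of 3 libraries each: a control named Ctrl, 7 single ligands, 21 pairs and 35 triplets. The ligands are PAM, LPS (lipopolysaccharide), HMW, Zymosan (given as depleted), SeV, cGAMP (the cyclic dinucleotide 3',3'-cGAMP) and CpGB, all named as in the labels. Doses, and what Ctrl cells received, are not given in the sources used here. The labels do not say whether the 3 libraries of a group came from separate animals or cultures, so each p-value measures only the spread between these libraries, which may be technical.

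Cxcr3 is carried mainly by activated T cells and natural killer cells, and its ligands draw those cells into inflamed tissue and towards dendritic cells in lymph nodes. Cxcl9 is best known as a gene that interferon gamma switches on. Cxcl10 answers both type I and type II interferon and NF-kB, and Cxcl11 is also interferon-induced and binds Cxcr3 tightly.

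The 3 genes lie next to each other on the minus strand of chromosome 5 in GRCm38.p6, the patch release of the mm10 build that the submitters' processing notes name. Cxcl9 spans chr5:92321331-92328079, Cxcl10 spans chr5:92346638-92348889 and Cxcl11 spans chr5:92359544-92363296. In this reference, which is built from C57BL/6J, RefSeq lists Cxcl11 as a transcribed pseudogene and GENCODE as a polymorphic pseudogene, so its counts are counts of a transcript and carry no information on protein. Art3, on the plus strand at chr5:92331799-92414628, spans both Cxcl10 and Cxcl11. Art3 had 4 counts over all libraries. The annotation the authors counted against and the strand rule of their counting are not given in the sources used here.

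RefSeq promoter windows, which run from 250 bases before the start site to 50 bases after it, are shown for reference. They are given for Cxcl9 (chr5:92328030-92328329) and Cxcl10 (chr5:92348840-92349139), both 5′ to 3′ on the minus strand of GRCm38.p6. Capitals mark matches to an interferon-stimulated response element (ISRE, searched as GAAA, 2 bases of any kind, GAAA) and to the NF-kB consensus (searched as GGG, a purine, any base, A or T, 2 pyrimidines, CC).
Cxcl9: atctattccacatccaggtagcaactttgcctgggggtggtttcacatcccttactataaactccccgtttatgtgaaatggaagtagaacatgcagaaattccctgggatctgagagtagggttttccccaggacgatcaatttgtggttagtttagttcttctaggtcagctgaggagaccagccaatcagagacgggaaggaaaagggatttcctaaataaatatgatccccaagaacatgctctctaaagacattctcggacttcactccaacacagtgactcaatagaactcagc
Cxcl10: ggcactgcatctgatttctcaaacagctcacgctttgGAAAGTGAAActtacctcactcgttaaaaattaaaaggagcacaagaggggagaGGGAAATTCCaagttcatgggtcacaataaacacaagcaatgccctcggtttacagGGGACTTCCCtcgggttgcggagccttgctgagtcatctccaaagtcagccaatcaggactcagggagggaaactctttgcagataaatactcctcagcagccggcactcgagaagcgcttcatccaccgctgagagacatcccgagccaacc

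The Cxcl10 window held 1 ISRE match, GAAAGTGAAA, at -213 to -204 from the start site. It also held 2 matches to the NF-kB consensus, GGGAAATTCC at -159 to -150 and GGGACTTCCC at -103 to -94. The Cxcl9 window held no match to either motif, and neither window held the interferon gamma activated sequence (GAS, searched as TTCNNNGAA), which says only that these letters are not in these windows. Both strands were searched, and none of the 3 matches overlaps another. Of 32851 promoter windows of the same length, 3.44% held the ISRE, 4.51% the NF-kB consensus, 8.3% the GAS and 0.183% (60 windows) both the ISRE and the NF-kB consensus. Only full matches to the searched letters were counted, so sites that differ by a base are not marked. A match is a string of letters and was not shown to be a bound site. No link between these windows and the levels of the genes was tested.

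Library totals ran from 46564 to 610234 UMI counts with a median of 171617, and the 3 Ctrl libraries from 61823 to 89530. The dendritic culture markers Itgax, Cd74, H2-Ab1, Cst3, Lyz2 and Csf2ra all passed the filter, and their summed group level ran from 10683 to 14564 CPM (counts scaled to a common depth with TMM factors). Of 6 natural killer and T cell markers none passed the filter, Cd3e and Gzma had no count, and the summed level was at most 2.95 CPM in any group. The summed level of the 3 macrophage markers used (Mrc1, Csf1r and Mertk), most of it Csf1r, was highest in Ctrl at 1921 CPM, against 756 CPM with LPS, 1040 with CpGB, 1317 with cGAMP, 1399 with PAM, 1461 with Zymosan, 1499 with SeV and 1808 with HMW. The 6 granulocyte markers used, 4 of them past the filter, summed to 617 CPM in Ctrl, 793 with LPS and 782 with PAM, and to between 571 and 620 CPM with the other ligands. The 4 plasmacytoid dendritic cell markers summed to 50.6 CPM in Ctrl, 166 with LPS, 154 with cGAMP, 140 with SeV, 84.8 with CpGB, 52.2 with HMW, 28.9 with PAM and 24.3 with Zymosan. Nearly all of that was Tcf4, since Siglech, Ccr9 and Pacsin1 reached at most 7.82, 8.04 and 4.19 CPM in any group. These levels differ between conditions that also differ in the Cxcr3 ligands, and their part in the results was not tested; in bulk RNA, more cells of a type and more RNA per cell cannot be told apart.

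Across the 1000 most variable genes, with Cxcl9, Cxcl10 and Cxcl11 left out, 7 libraries stood apart from their group. Replicate 1 of PAM+HMW+Zymosan, HMW+SeV+cGAMP, HMW+SeV+CpGB, HMW+cGAMP+CpGB and Zymosan+SeV+cGAMP and replicate 3 of LPS+SeV+CpGB each correlated better with another group than with their own companions. In that order the closest groups were PAM+Zymosan+SeV, Zymosan+cGAMP, cGAMP+CpGB, SeV+CpGB, HMW+cGAMP and LPS+SeV, so the labels of these libraries are in doubt. Replicate 1 of HMW+SeV+CpGB held 12538 CPM of Cxcl10 against 7907 and 9587 CPM in its companions, and replicate 1 of HMW+cGAMP+CpGB held 7250 CPM against 12354 and 12302 CPM. Whether libraries were exchanged was not tested. Replicate 3 of PAM+HMW+SeV had the highest total, 3.56 times the median, and stood apart by that total. It also correlated better with PAM+LPS (0.965) than with its own companions (0.945), so its label may be in doubt as well. That gap is under the cut of 0.03 used for the other libraries. Replicates 1 and 3 of Zymosan+SeV had gaps of 0.0301 and 0.0346 to HMW+Zymosan+SeV, the only closer group, and were kept. Counts of calls and mean changes were recomputed without the 7 libraries that stood apart, and the second value is given where a printed count, call or side of a threshold changed.

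Given alone, LPS, SeV and cGAMP raised all 3 chemokine genes, CpGB raised Cxcl9 and Cxcl10, and PAM, HMW and Zymosan raised none of them past the threshold. A gene counts as called where edgeR's quasi-likelihood test gave an adjusted p under 0.05 and the log2 fold change was at least 1 in size. At that threshold LPS raised 14.6% of the tested genes, SeV 10.5%, cGAMP 11.7%, CpGB 10.8%, PAM 8.01%, Zymosan 4.43% and HMW 0.953%.

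Cxcl10 stood at 305, 511 and 336 CPM in the 3 Ctrl libraries. It reached 6774, 7493 and 7647 CPM with LPS, 7263, 7105 and 6923 CPM with SeV, and 10903, 11026 and 11373 CPM with cGAMP. Every library of these ligands was more than 10 times any Ctrl library, and the cGAMP libraries all lay above the LPS and SeV libraries. Against Ctrl the log2 fold change was 4.25 ± 0.23 (SE) for LPS, 4.21 ± 0.23 for SeV and 4.86 ± 0.23 for cGAMP, with adjusted p of 1.43e-43, 2.02e-42 and 2.38e-51 by edgeR's quasi-likelihood test. CpGB gave 902, 2471 and 1831 CPM, a wider spread that still cleared every Ctrl library (log2 fold change 2.22 ± 0.25, adjusted p = 5.53e-15). With PAM (486, 598 and 589 CPM), HMW (457, 717 and 423 CPM) and Zymosan (497, 781 and 331 CPM) the libraries overlapped Ctrl.

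Cxcl9 had 3 counts over the 3 Ctrl libraries, which gave 0, 12.5 and 19.2 CPM. SeV gave 698, 621 and 469 CPM, cGAMP 422, 456 and 540 CPM, and LPS 119, 139 and 188 CPM. Every SeV and cGAMP library of Cxcl9 exceeded every LPS library, an order that was not tested between the ligands. With so few control counts the fold is imprecise: the ratio of counts per depth against Ctrl was 48.4 for SeV (95% interval 16.4 to 236), 40.9 for cGAMP (13.8 to 199.9) and 13.2 for LPS (4.36 to 65.2), intervals that cover counting error only. By edgeR's quasi-likelihood test the adjusted p was 2.69e-22, 2.13e-19 and 3.13e-07. CpGB gave 48.5, 56.2 and 69.2 CPM (adjusted p = 0.0191), a call that was lost with DESeq2 (adjusted p = 0.0572), without replicate 1 of Ctrl (0.0834), without replicate 3 of CpGB (0.0638), without replicate 2 (0.0597) or 3 (0.0821) of every group, or thinned to the lowest library total (0.297). With that thinning the LPS call was lost as well (adjusted p = 0.0638). PAM, HMW and Zymosan libraries lay between 4.67 and 44.4 CPM and overlapped Ctrl.

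Cxcl11 also had 3 counts in Ctrl, at 0, 24.9 and 9.60 CPM. LPS gave 149, 161 and 157 CPM, SeV 162, 76.6 and 122 CPM, and cGAMP 156, 210 and 184 CPM. In contrast to Cxcl9, the LPS libraries lay within the range of the SeV and cGAMP libraries. The ratio to Ctrl was 13.3 for LPS (4.41 to 66.0), 10.1 for SeV (3.28 to 50.6) and 16.0 for cGAMP (5.29 to 79.2), with adjusted p of 9.76e-06, 5.83e-04 and 1.88e-06 by edgeR's quasi-likelihood test. CpGB (19.4, 15.3 and 9.22 CPM) overlapped Ctrl, and PAM, HMW and Zymosan libraries held at most 9.33 CPM.

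**Figure D1:**
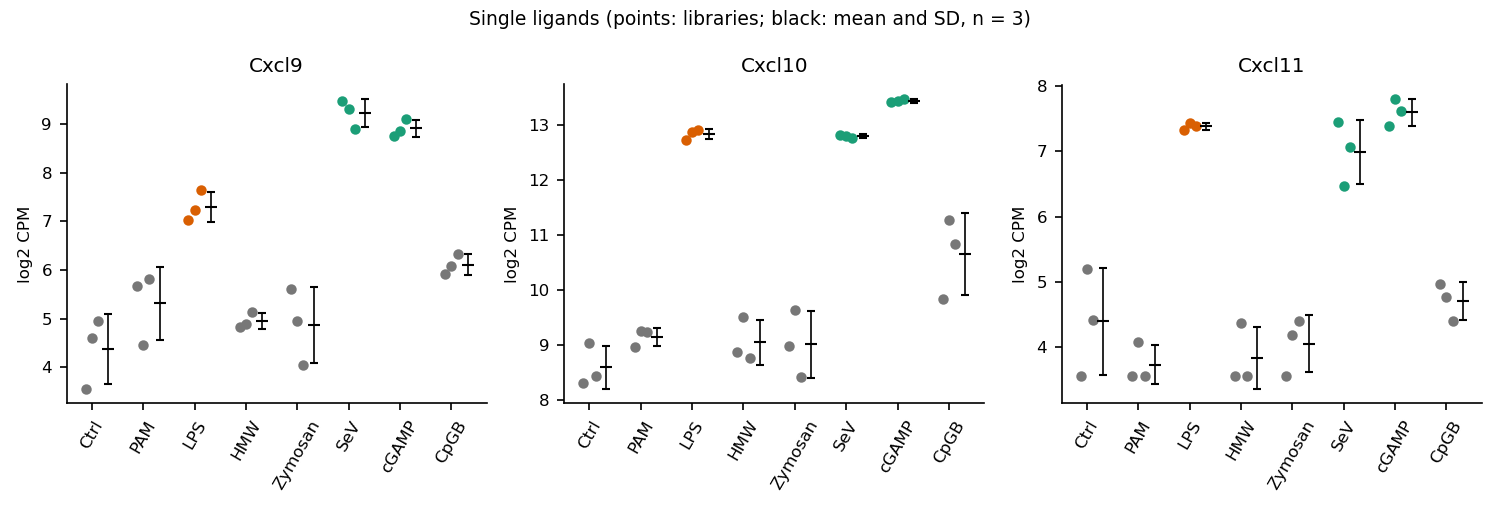
Level of each chemokine gene in Ctrl and under the 7 single ligands, as log2 CPM with a prior count of 2 (y axis, a log scale that differs between panels); points are libraries, and black marks are the mean and SD of 3. LPS, SeV and cGAMP stand above every other group in all 3 panels, and for Cxcl9 the LPS libraries sit below the SeV and cGAMP libraries.

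Over all 63 conditions compared with Ctrl, Cxcl10 was higher in 59, Cxcl9 in 48 and Cxcl11 in 41, and none of the 3 was lower in any by edgeR or DESeq2, nor below Ctrl at an unadjusted p under 0.05, although the 3 counts that Cxcl9 and Cxcl11 each had in Ctrl leave a fall of these 2 genes hardly detectable; over all tested genes, 14.3% of such comparisons were called higher and 9.03% lower. These 63 comparisons share the same Ctrl libraries. The 4 conditions in which Cxcl10 was not called were PAM, HMW, Zymosan and PAM+Zymosan. Without the 7 libraries that stood apart the counts were 59, 50 and 45.

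The level of Cxcl10 fell into separate ranges, but for 1 library, by whether a group held LPS, SeV or cGAMP; those of Cxcl9 and Cxcl11 overlapped. In the 15 groups with none of them, single libraries of Cxcl10 lay between 305 and 4592 CPM, those of Cxcl9 between 0 and 69.2 CPM and those of Cxcl11 between 0 and 48.7 CPM. The highest Cxcl10 and Cxcl11 libraries in those 15 groups were the same one, replicate 1 of PAM+HMW+Zymosan, which stood apart; its companions held 926 and 1756 CPM of Cxcl10. In the 49 other groups the lowest library was 2898 CPM for Cxcl10, which only that library among the 45 exceeded, and the group means ran from 3158 to 14396 CPM. With SeV or cGAMP and no LPS the lowest library was 10.2 CPM for Cxcl9 and 4.77 CPM for Cxcl11, inside the ranges of the 15 groups.

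The 9 groups with the highest Cxcl9 all held SeV or cGAMP and none held LPS, PAM or CpGB. In order they were HMW+SeV+cGAMP, SeV+cGAMP, Zymosan+SeV+cGAMP, HMW+SeV, HMW+cGAMP, HMW+Zymosan+cGAMP, SeV, Zymosan+cGAMP and cGAMP. Means ran from 884 ± 309 CPM (SD, n = 3) for HMW+SeV+cGAMP, or 1062 CPM without the library that stood apart, to 473 ± 60.9 CPM for cGAMP. The 11 groups with LPS but neither SeV nor cGAMP had means between 119 and 267 CPM, and the 11 with LPS and SeV or cGAMP lay in nearly the same range, from 124 to 297 CPM. In the 27 groups with SeV or cGAMP and no LPS the means spread from 46.1 CPM in PAM+Zymosan+SeV to that top value, and the lowest of them was below CpGB alone (58.0 CPM). Without the library that stood apart, Zymosan+SeV+cGAMP averaged 739 CPM of Cxcl9 instead of 779 CPM.

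The 4 highest Cxcl10 means were in groups with PAM and cGAMP, although not all 6 such groups were high. PAM+HMW+cGAMP (14002, 13938 and 15248 CPM), PAM+cGAMP+CpGB (13438, 14667 and 14170 CPM) and PAM+cGAMP (12671, 14170 and 14620 CPM) led its order, and PAM+SeV+cGAMP followed at 12931 CPM. PAM+LPS+cGAMP (10817 CPM, rank 13) and PAM+Zymosan+cGAMP (8644 CPM, rank 26) averaged less than cGAMP alone (11101 CPM, rank 10). Cxcl9 in the first 3 groups averaged 168, 184 and 291 CPM, ranks 40, 35 and 14 of 64. Cxcl11 in them averaged 69.7, 61.1 and 45.9 CPM, ranks 37, 40 and 45.

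Cxcl11 averaged most in PAM+LPS, at 91.1, 321 and 347 CPM, where replicate 1 was far below the other 2. HMW+SeV followed with 213, 194 and 201 CPM. PAM+HMW+SeV ranked next only through replicate 3, which stood apart: it held 435 CPM against 87.4 and 40.1 CPM in its companions. Neighbours in these orders rarely separate: the ranges of libraries overlapped between 61 of 63 neighbouring groups for Cxcl9, 59 of 63 for Cxcl10 and 62 of 63 for Cxcl11.

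**Figure D2:**
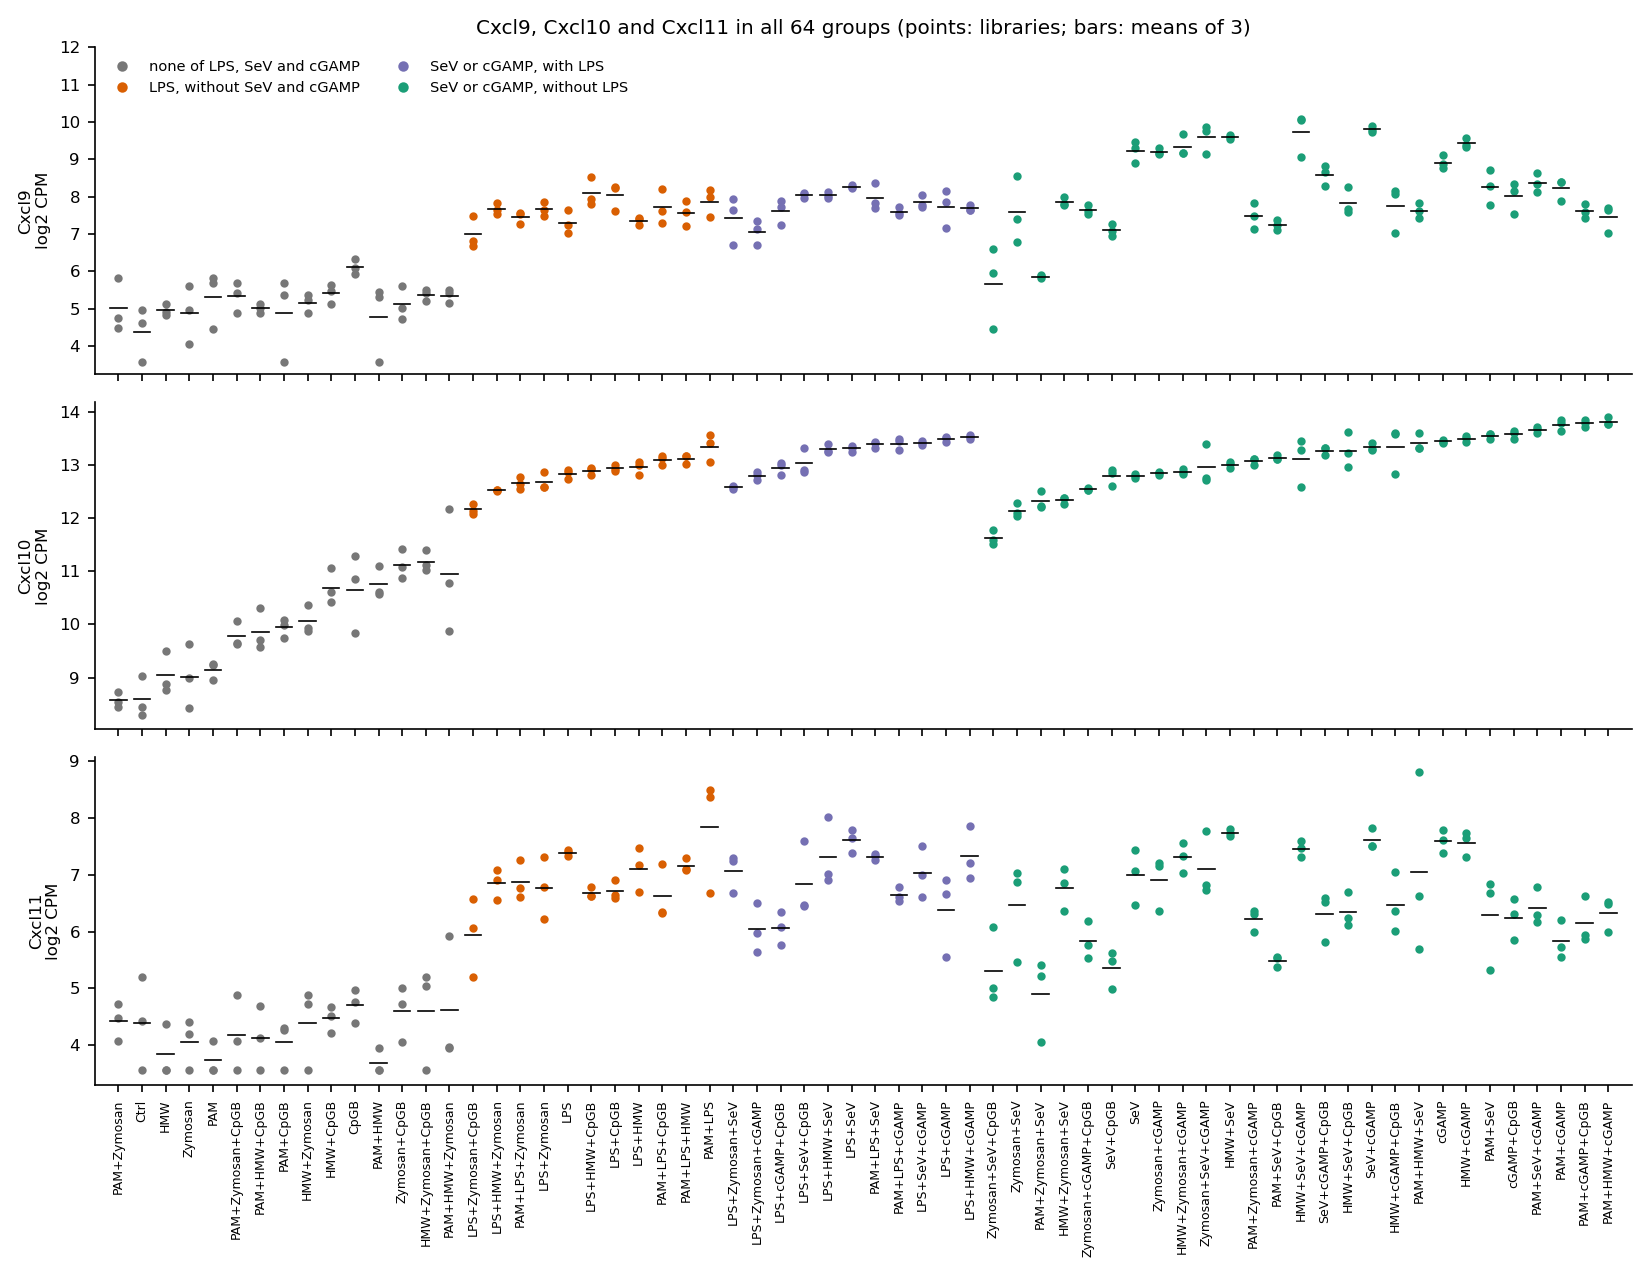
Level of Cxcl9, Cxcl10 and Cxcl11 (log2 CPM, prior count of 2, y axis) in all 64 groups (x axis), arranged by whether the group held LPS, SeV or cGAMP and then by mean Cxcl10; points are libraries and bars the mean of 3. Within the green groups, with SeV or cGAMP but no LPS, Cxcl10 climbs from 3158 to 14396 CPM while Cxcl9 and Cxcl11 are lower in the last groups, which hold PAM or CpGB, than in those with SeV or cGAMP alone or with HMW.

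Each ligand was next compared on and off against the same background, from 1 ligand to a pair and from a pair to a triplet, none of which uses Ctrl. Of these additions, 21 for each of the 7 ligands, 38 raised Cxcl10 and 4 lowered it; 30 raised Cxcl9 and 21 lowered it; 26 raised Cxcl11 and 14 lowered it. Without the libraries that stood apart, 38 and 4, 29 and 22, and 25 and 15 did so. With no fold threshold 17 additions lowered Cxcl10, against 2.45% of all tests, and thinned to the lowest library total 13 raised and 2 lowered Cxcl11. With the fold threshold and all libraries, 3.02% of additions over all tested genes were called higher and 1.49% lower. Among the additions that raised Cxcl9 all were of LPS (11), SeV (7) or cGAMP (12), ligands whose additions raised 5.69%, 2.57% and 5.36% of all tests. The 21 that lowered it were of CpGB (7), PAM (5), LPS (5) and Zymosan (4), whose additions lowered 1.18%, 1.47%, 3.50% and 0.853% of all tests; without the libraries that stood apart LPS raised it in 10 and Zymosan lowered it in 5.

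LPS raised Cxcl9 and Cxcl10 in all 10 backgrounds without SeV and cGAMP and Cxcl11 in 9 of them, where 8.75% of all tests were called higher. In the 11 backgrounds with SeV or cGAMP it raised Cxcl10 in none, and it raised Cxcl9 and Cxcl11 in 1 each, on SeV+CpGB; neither rise was called without the libraries that stood apart, 1 of which is replicate 3 of LPS+SeV+CpGB. The Cxcl9 rise, at a log2 change near 1, was also lost with 7 other alternatives (log2 change 0.86 to 1.07), and the Cxcl11 rise with thinning to the lowest library total or without replicate 3 of every group (adjusted p = 0.386 and 0.546, edgeR's quasi-likelihood test). It lowered Cxcl9 in 5 of those 11 backgrounds and Cxcl11 in 1. Of all tests in these 11 backgrounds, 2.90% were called higher and 1.93% lower.

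CpGB lowered Cxcl9 in 7 of the 11 backgrounds with SeV or cGAMP, Cxcl11 in 5 (4 without the libraries that stood apart) and Cxcl10 in none, where 1.22% of all tests were called lower. SeV alone gave 698, 621 and 469 CPM of Cxcl9 and SeV+CpGB 122.9, 143 and 112 CPM, so that the groups were well apart and the level fell by 2.20 ± 0.26 (SE) on the log2 scale (adjusted p = 2.97e-13, edgeR's quasi-likelihood test). Cxcl11 went from 162, 76.6 and 122 CPM to 32.8, 37.7 and 19.8 CPM, again without overlap (log2 change -1.97 ± 0.54, adjusted p = 0.00638). This Cxcl11 call was lost without replicate 1 (adjusted p = 0.0527) or without replicate 3 (0.114) of every group. Cxcl10 stood at 7263, 7105 and 6923 CPM with SeV and 7654, 6197 and 7330 CPM with SeV+CpGB, ranges that overlap, with a log2 change of -0.01 ± 0.17 (adjusted p = 0.993).

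On cGAMP the same addition took Cxcl11 from 156, 210 and 184 CPM to 67.9, 45.8 and 83.6 CPM (log2 change -1.48 ± 0.41, adjusted p = 0.00612), a call lost without replicate 2 of every group (adjusted p = 0.157). Cxcl9 went from 422, 456 and 540 CPM to 272, 314 and 173 CPM, a log2 change of -0.93 ± 0.23 that was under the fold threshold (adjusted p = 0.00142). Cxcl10 was 12369, 11448 and 12778 CPM after the addition, all above the cGAMP libraries, with a log2 change of 0.14 ± 0.16 (adjusted p = 0.73).

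PAM lowered Cxcl9 in 5 of the 11 backgrounds with SeV or cGAMP, Cxcl11 in 4 (5 without the libraries that stood apart) and Cxcl10 in none, where 1.72% of all tests were called lower. Added to cGAMP, it took Cxcl11 to 35.3, 61.5 and 41.0 CPM, which lie below all 3 cGAMP libraries (log2 change -1.98 ± 0.45, adjusted p = 3.64e-04). Cxcl9 went to 326, 321 and 226 CPM (-0.72 ± 0.23, adjusted p = 0.0169, under the fold threshold). Cxcl10 moved the other way, to 12671, 14170 and 14620 CPM (0.32 ± 0.16, adjusted p = 0.222), without overlap with cGAMP alone. On SeV, PAM took Cxcl10 to 11433, 12201 and 12287 CPM (0.76 ± 0.16, adjusted p = 1.70e-04) while Cxcl9 was at 207, 411 and 301 CPM (-0.88 ± 0.22, adjusted p = 0.0012). Neither of those changes reached the fold threshold, and Cxcl11 (28.2, 103 and 91.1 CPM) overlapped SeV alone.

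LPS on cGAMP took Cxcl9 to 219, 131 and 271 CPM (log2 change -1.15 ± 0.23, adjusted p = 3.07e-05) and Cxcl11 to 35.01, 89.9 and 108 CPM (-1.14 ± 0.38, adjusted p = 0.0288), both below every cGAMP library. The Cxcl11 call was lost without replicate 1 (adjusted p = 0.108) or replicate 2 (0.119) of every group, and Cxcl9 fell just short of the fold threshold without replicate 2 of every group (log2 change -0.996). Cxcl10 with LPS+cGAMP, at 11063, 11714 and 11680 CPM, overlapped cGAMP alone (0.05 ± 0.16, adjusted p = 0.896). LPS on SeV left Cxcl9 at 293, 289 and 307 CPM, below every SeV library (-0.96 ± 0.21, adjusted p = 2.53e-04, under the fold threshold). Thinned to the lowest library total, none of the 4 Cxcl11 losses named here was called (adjusted p from 0.0734 to 0.245). The Cxcl9 changes named as under the fold threshold passed it in some alternatives for PAM on SeV, LPS on SeV and CpGB on cGAMP, with log2 changes down to -1.15, -1.18 and -1.17.

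Zymosan was the only one of the 7 ligands whose addition lowered Cxcl10 in backgrounds with SeV or cGAMP past the threshold. It did so in 3 of 11, and it lowered Cxcl9 in 3 (4 without the libraries that stood apart), against 0.716% of all such tests. With no fold threshold the Cxcl10 count was 10 of 11, against 1.69% of all such tests. Cxcl10 fell from 11974 ± 470 to 5098 ± 618 CPM (SD, n = 3) when added to PAM+SeV, from 7060 ± 764 to 3158 ± 319 CPM on SeV+CpGB, and from 12199 ± 681 to 5947 ± 94.4 CPM on cGAMP+CpGB. The log2 changes were -1.23, -1.16 and -1.04, with adjusted p of 1.01e-09, 4.57e-08 and 4.39e-07 by edgeR's quasi-likelihood test. The fall on cGAMP+CpGB was just under the fold threshold when thinned to the lowest library total (-0.95) or without replicate 3 of every group (-0.99). The deepest loss of Cxcl9 was also with Zymosan on PAM+SeV, from 207, 411 and 301 CPM to 44.4, 46.2 and 47.7 CPM (log2 change -2.75, adjusted p = 1.40e-11). On cGAMP alone Zymosan did not lower Cxcl9: the libraries held 555, 563 and 615 CPM, all above those of cGAMP (log2 change 0.28 ± 0.20, adjusted p = 0.501).

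HMW lowered none of the 3 genes in the 11 backgrounds and raised 1, Cxcl11 on PAM+SeV, against 0.0404% of tests called higher and 0.00770% lower. That rise rested on replicate 3 of PAM+HMW+SeV, which stood apart: the log2 change was 1.504 with it and -0.32 without the libraries that stood apart. The call was also lost with library size alone (adjusted p = 0.0617) and with thinning to the lowest library total (0.755).

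To summarise each ligand, its change in log2 CPM was averaged over the 11 backgrounds that hold SeV or cGAMP and lack that ligand, a summary chosen after the data were seen. The 11 backgrounds differ between ligands, and only SeV, cGAMP and SeV+cGAMP serve all 5, so the sizes of these means are not ranked between ligands. The test permuted libraries within each background 100000 times, two-sided, with Benjamini-Hochberg adjustment over 25 tests (5 ligands by 3 genes and 2 ratios); the smallest p it can give is 1e-05, and the ligands share many libraries. CpGB lowered Cxcl9 by a mean log2 change of -1.19 (SD over backgrounds 0.68, lower in 11 of 11, adjusted permutation p = 2.1e-05). PAM changed Cxcl9 by -1.02 (lower in 10 of 11), LPS by -0.92 (10 of 11) and Zymosan by -0.89 (10 of 11), each at the same adjusted permutation p. The mean with HMW was 0.00 (lower in 6 of 11, adjusted permutation p = 0.99).

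For Cxcl10 the same means were 0.28 with PAM (higher in 10 of 11, adjusted permutation p = 2.1e-05), -0.77 with Zymosan (lower in 11 of 11, adjusted permutation p = 2.1e-05) and -0.17 with CpGB (lower in 8 of 11, adjusted permutation p = 0.0017). LPS (0.04) and HMW (0.04) had an adjusted permutation p of 0.46 each; without the libraries that stood apart HMW gave 0.06 (adjusted permutation p = 0.03), and no other of the 25 means changed its side of 0.05. For Cxcl11 they were -0.96 with CpGB (lower in 10 of 11) and -0.71 with PAM (lower in 9 of 11), with adjusted permutation p of 2.1e-05 and 7.7e-05. Zymosan changed Cxcl11 by -0.48 (10 of 11 lower, adjusted permutation p = 2.3e-04), HMW by 0.40 (8 of 11 higher, adjusted permutation p = 0.0052) and LPS by 0.10 (6 of 11 lower and 5 higher, from -1.22 on cGAMP to 1.47 on SeV+CpGB, adjusted permutation p = 0.61). Averaged over these backgrounds, PAM thus moved Cxcl10 up and Cxcl9 and Cxcl11 down in the same libraries. The Cxcl10 rise was small: it passed the fold threshold in 0 of 11 backgrounds and was called in 1 with no fold threshold. Cxcl9 was higher with PAM in 1 of 11 backgrounds and Cxcl11 in 2.

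**Figure D3:**
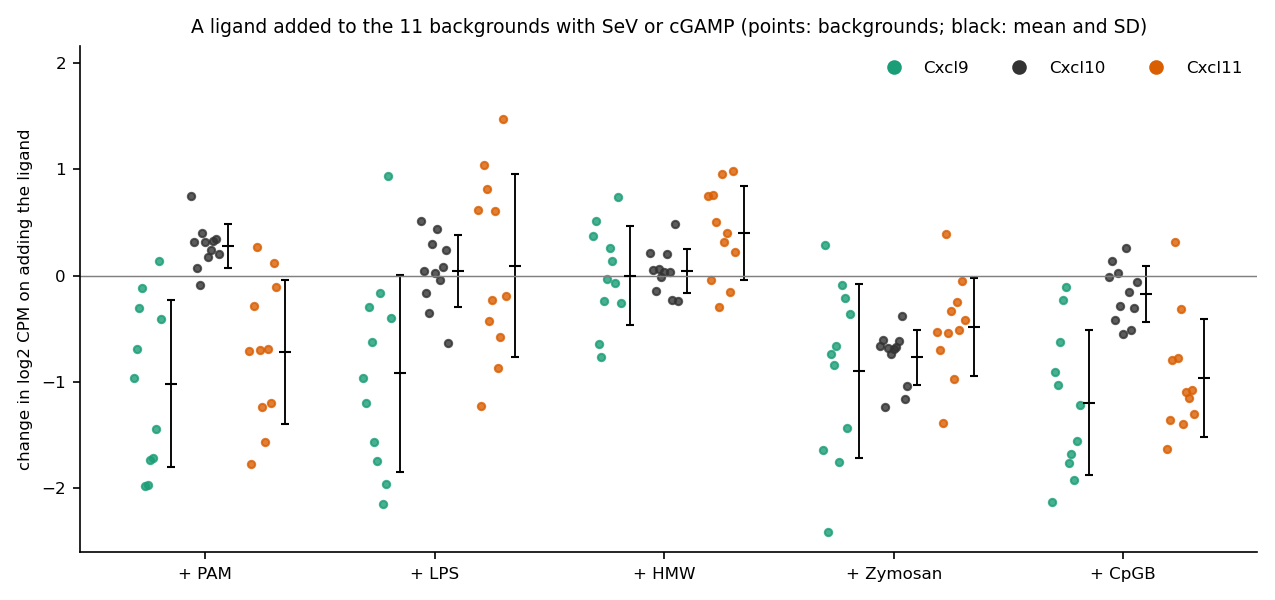
Change in log2 CPM of each gene (y axis, 0 means no change) when PAM, LPS, HMW, Zymosan or CpGB was added to each of its own 11 backgrounds with SeV or cGAMP, a set that differs between ligands; points are backgrounds, black marks the mean and SD over them. All 11 Cxcl10 points (dark) lie below 0 with Zymosan and 10 of 11 above 0 with PAM, while Cxcl9 points (green) lie below 0 in 10 or 11 of 11 backgrounds for every ligand but HMW, with 6 of 11.

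The ratio of Cxcl9 to Cxcl10 within a library, in which scaling between libraries largely cancels, differed between conditions as well. On the log2 scale it was -3.36, -3.49 and -3.85 with SeV and -5.83, -5.33 and -5.89 with SeV+CpGB, without overlap; ratios of single groups were not tested. With LPS alone it was -5.70, -5.64 and -5.26, below every SeV (-3.85 to -3.36) and cGAMP (-4.65 to -4.37) library. Over the 11 backgrounds its mean change was -1.30 with PAM (lower in 11 of 11), -1.02 with CpGB (9 of 11) and -0.96 with LPS (9 of 11), each with an adjusted permutation p of 2.1e-05. With Zymosan it was -0.13 (lower in 6 of 11, from -1.17 on PAM+SeV to 0.89 on cGAMP, adjusted permutation p = 0.44). With HMW it was -0.04 (lower in 5 of 11, adjusted permutation p = 0.68). Levels of different genes were not compared, so these values are read only between conditions.

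The ratio of Cxcl11 to Cxcl10 moved with PAM (-0.99, lower in 10 of 11) and CpGB (-0.79, 9 of 11), both at an adjusted permutation p of 2.1e-05. It rose with HMW (0.36, higher in 9 of 11, adjusted permutation p = 0.0066) and Zymosan (0.29, 7 of 11, adjusted permutation p = 0.034), and it was 0.05 with LPS (adjusted permutation p = 0.76). The largest Zymosan changes were 1.11 on SeV+CpGB and 1.07 on PAM+cGAMP, groups with few Cxcl11 counts. Cxcl11 had 12 counts with SeV+CpGB and 10 with Zymosan added, and 19 with PAM+cGAMP and 32 with Zymosan added. At such counts the prior count of 2 weighs on the ratio. With cGAMP alone the ratio stood at -6.02, -5.63 and -5.86 and with PAM+cGAMP at -8.07, -7.60 and -8.11, so no library of either group reached the other.

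**Figure D4:**
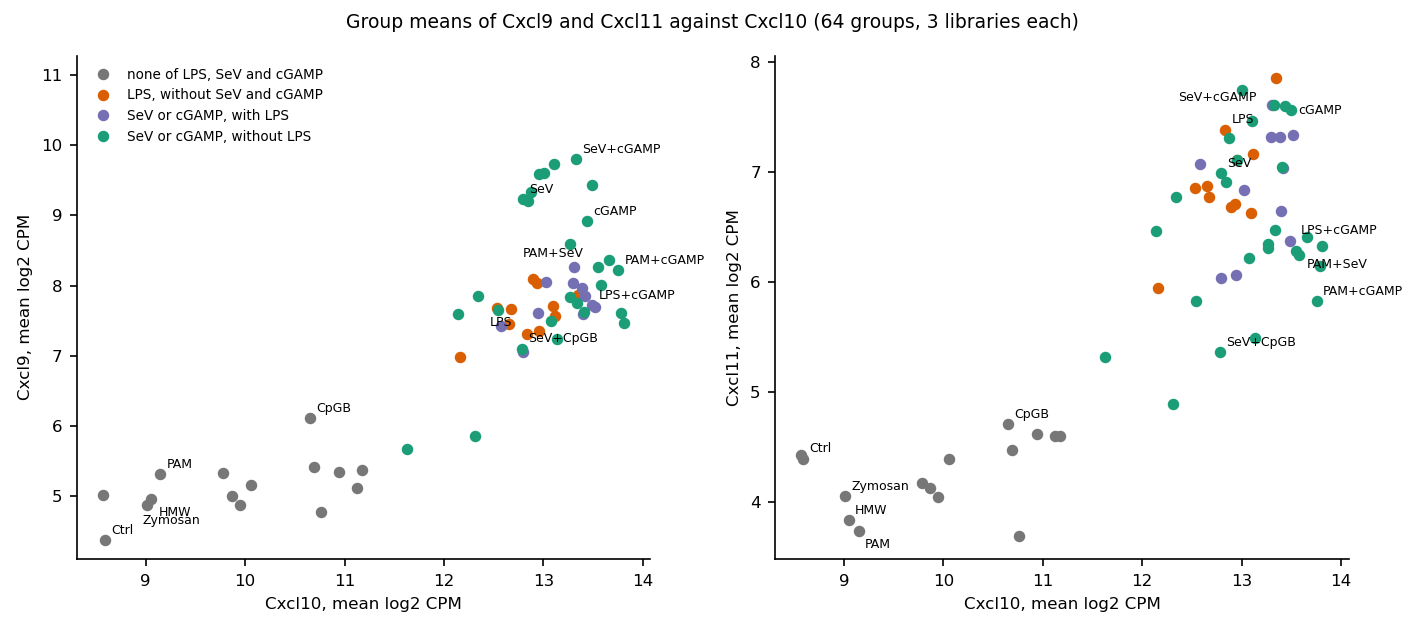
Mean log2 CPM of Cxcl9 (left) and Cxcl11 (right) against that of Cxcl10 in each of the 64 groups, with a prior count of 2 and colours by the presence of LPS, SeV and cGAMP. At a like level of Cxcl10, SeV+CpGB and LPS lie far below SeV in the left panel, and PAM+cGAMP lies far below cGAMP in the right panel.

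Interactions were tested in all 21 pairs. A pair interaction is the log2 change of the pair less the sum of the changes of its ligands, and it was called on the adjusted p alone. A negative call says that the log2 changes did not add up, not that the pair stood below its ligands. With SeV+cGAMP, which has such a call, Cxcl9 averaged 884 CPM, against 596 CPM with SeV and 473 CPM with cGAMP. Where both ligands raise a gene strongly, the sum of their changes may exceed any level it can reach. Such calls are not read as antagonism. Negative interactions were called in 7 of 21 pairs for Cxcl10, 5 for Cxcl9 and 3 for Cxcl11, and positive ones in 0 pairs; over all tested genes 3.50% were negative and 1.08% positive. Negative Cxcl10 interactions numbered 10 without a filter on low counts or without the libraries that stood apart, where PAM+Zymosan, Zymosan+SeV and Zymosan+cGAMP were called too (adjusted p from 2.17e-05 to 0.008, log2 from -1.31 to -1.09, edgeR's quasi-likelihood test). For Cxcl10 they were -4.32 ± 0.29 (SE) in SeV+cGAMP, -4.20 ± 0.29 in LPS+cGAMP and -3.74 ± 0.29 in LPS+SeV (adjusted p = 2.05e-32, 3.17e-31 and 6.99e-26, edgeR's quasi-likelihood test). Those pairs stood at 10290, 11486 and 10149 CPM, within 1.5 times the higher of their single ligands. The other 4 were CpGB with SeV (-2.23), LPS (-2.12), cGAMP (-2.08) and PAM (-1.42).

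For Cxcl9 the negative interactions were LPS+cGAMP (-4.78 ± 0.64), SeV+cGAMP (-4.66 ± 0.59), LPS+SeV (-4.59 ± 0.64), SeV+CpGB (-4.49 ± 0.75) and cGAMP+CpGB (-3.22 ± 0.77), and for Cxcl11 LPS+cGAMP (-4.80 ± 0.82), SeV+cGAMP (-3.26 ± 0.88) and LPS+SeV (-3.04 ± 0.89). These rest on the 3 counts each gene had in Ctrl, and the Cxcl11 call in LPS+SeV was lost without replicate 1 (adjusted p = 0.0511) or replicate 3 (0.0508) of Ctrl, and without replicate 1 (0.0538) or replicate 3 (0.105) of every group. Without replicate 3 of every group, Cxcl10 in PAM+CpGB (adjusted p = 0.0852), Cxcl9 in cGAMP+CpGB (0.0792) and Cxcl11 in SeV+cGAMP (0.0548) were lost too. Thinned to the lowest library total, Cxcl10 in PAM+CpGB (adjusted p = 0.0591), Cxcl9 in cGAMP+CpGB (0.20) and Cxcl11 in LPS+SeV (0.166) were lost. The 1 positive interaction at an unadjusted p under 0.05 was Cxcl10 in PAM+HMW (1.15 ± 0.35, adjusted p = 0.285 with edgeR's quasi-likelihood test); its adjusted p was 0.00939 with DESeq2 and 0.020 without the libraries that stood apart.

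A pair rose above both of its single ligands by at least a log2 change of 1 in 1 case, Cxcl10 in PAM+HMW, against 0.353% of all such tests, and none fell below both (0.0504%). HMW+Zymosan was a second such pair for Cxcl10 without the libraries that stood apart or without a filter on low counts. PAM gave 486, 598 and 589 CPM and HMW 457, 717 and 423 CPM, while the pair gave 1552, 2187 and 1519 CPM. Every library of the pair was above every library of either ligand, and the smaller of the 2 log2 changes was 1.65 (adjusted p = 6.56e-11). Cxcl9 (0, 31.3 and 28.2 CPM) and Cxcl11 (0, 0 and 3.52 CPM) stayed low in the same pair. No triplet stood above or below all 3 of its pairs for any of the 3 genes; over all tested genes 0.0115% of such tests were called above and 0% below.

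Cxcl10 also moved within the groups that hold no LPS, SeV or cGAMP, where Cxcl9 and Cxcl11 remained at low counts. CpGB added to Zymosan took it from 497, 781 and 331 CPM to 1862, 2157 and 2734 CPM (log2 change 2.10, adjusted p = 5.78e-18), and CpGB added to HMW took it to 1356, 2129 and 1545 CPM (1.64, adjusted p = 1.59e-12). PAM lowered it when added to Zymosan+CpGB, to 1059, 783 and 788 CPM (-1.38, adjusted p = 8.80e-09). HMW added to PAM+Zymosan raised it from 411, 361 and 340 CPM to 4592, 926 and 1756 CPM (2.72, or 1.95 without replicate 1, which stood apart). PAM added to HMW+Zymosan raised it by 1.16 with that library and by 0.33, not called, without it; with library size alone the change was 0.97, under the fold threshold.

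Genes that induce the Cxcr3 ligands, carry the signal or answer to it were taken from a list of 32, of which 27 passed the filter. LPS raised 17 of these 27 and lowered 1, with a median log2 fold change of 1.91 against -0.06 over all tested genes. For CpGB the counts were 16 and 1 (median 1.61 against -0.03), for SeV 15 and 1 (1.04 against -0.08), for cGAMP 14 and 1 (1.02 against -0.09) and for PAM 12 and 1 (0.89 against 0.03). HMW raised 3 (0.14 against 0.03) and Zymosan 3 (0.41 against 0.02), and neither lowered any. Over all tested genes the shares called higher were given above, and those called lower were 9.60% for LPS, 6.27% for CpGB, 5.13% for SeV, 5.91% for cGAMP, 5.89% for PAM, 0.0212% for HMW and 1.82% for Zymosan. These comparisons share Ctrl with those of the chemokines. The list includes genes picked as known responders and was chosen with earlier results of these data known. Its excess over all tested genes is therefore a description and no test.

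Of the inducing cytokines, interferon gamma (Ifng) had 1 count over all libraries and the interferon alpha gene Ifna4 had 36. Ifnb1, interferon beta, averaged 11.97 ± 2.17 CPM (SD, n = 3) in Ctrl, 251 ± 8.6 with SeV and 196 ± 79 with cGAMP (log2 fold changes 4.33 and 3.93, adjusted p = 1.91e-10 and 5.73e-08, edgeR's quasi-likelihood test). With LPS it averaged 13.4 ± 12 CPM at this single time point (0.32, adjusted p = 0.858). Tnf rose with all ligands but HMW, from 856 ± 254 CPM to between 1793 CPM with SeV and 8099 CPM with PAM. Il12b rose with CpGB, and Il18 with PAM, LPS, SeV and CpGB.

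Irf1, a transcription factor that interferon gamma induces, averaged 107 ± 27 CPM in Ctrl, 637 ± 93 with SeV, 622 ± 37.0 with cGAMP and 391 ± 60 with LPS, and all 3 rises were called. PAM (93.3 ± 17 CPM) and CpGB (166 ± 95 CPM) left it uncalled. Stat2, which carries the type I interferon signal, rose with all 7 ligands, from 84.9 ± 54.9 CPM to between 178 CPM with PAM and 663 CPM with LPS. Irf7 and Irf9 rose with LPS, SeV, cGAMP and CpGB, Irf8 with SeV, and Nfkb1 with PAM, LPS and CpGB; Irf3 and Rela were not called under any of the 7. Irf7 also rose with HMW, and Irf9 with PAM. The 3 genes HMW raised were Stat2, Irf7 and Ifit1, and the 3 that Zymosan raised were Tnf, Jak1 and Stat2.

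Among receptors and kinases, Ifngr1, a chain of the interferon gamma receptor, was the 1 gene of the list that fell. It went from 124 ± 76 CPM in Ctrl to 45.8 ± 22 with PAM, 26.8 ± 7.8 with LPS, 40.0 ± 13 with SeV, 16.0 ± 8.9 with cGAMP and 32.5 ± 8.4 with CpGB. Ifngr2 rose with PAM, Jak1 with LPS, Zymosan, SeV and cGAMP, and Jak2 with all but HMW and Zymosan, while Ifnar1, Ifnar2 and Tyk2 were not called. The inhibitor Socs1 rose with PAM, LPS, SeV, cGAMP and CpGB, most with SeV (383 ± 66 CPM against 14.2 ± 14). Socs3 rose with PAM, LPS and CpGB, as did Il6, which went from 126 ± 49 CPM to 1336, 1266 and 1160 CPM and was not called with SeV or cGAMP. The interferon-stimulated genes Ifit1 and Isg15 rose with LPS, SeV, cGAMP and CpGB, and Ifit1 also with HMW. Under the 4 ligands that raised Cxcl10, the mean of Ifit1 had the same order as that of Cxcl10, although LPS and SeV were close for both genes. Their Cxcl10 libraries overlapped, and their Ifit1 means differed by less than either SD. Ifit1 averaged 5445 ± 377 CPM under cGAMP, 3818 ± 253 under LPS, 3760 ± 314 under SeV, 1548 ± 436 under CpGB, against 218 ± 29.1 in Ctrl. The orders of the other response genes are not given here. The receptor Cxcr3 itself had 14 counts over all libraries and Dpp4, a protease that trims the chemokines, had 103; neither passed the filter.

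Over the 64 group means of log2 CPM, the genes most like each chemokine are given as a description with no test; Fgl2 was among the first 5 for both Cxcl9 and Cxcl11, and groups share ligands and library preparation. For Cxcl10 they were Cmpk2 (Pearson r = 0.98), Ifih1 (0.97), Rsad2 (0.97), Ifit1 (0.96) and Cd69 (0.96). For Cxcl9 they were Fgl2 (0.95), Cited2 (0.90), Irf1 (0.89), Samhd1 (0.89) and Cept1 (0.89). For Cxcl11 they were Iigp1 (0.93), Lamp2 (0.91), Il18bp (0.91), Fgl2 (0.90) and Pydc3 (0.90). Between the chemokines r was 0.90 for Cxcl9 and Cxcl11, 0.84 for Cxcl9 and Cxcl10 and 0.84 for Cxcl10 and Cxcl11. Ifit1, a classical interferon-stimulated gene, ranked 4 for Cxcl10 but 119 for Cxcl9 and 157 for Cxcl11.

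Of the 3 protein-coding genes on each side and Art3, only Naaa, Nup54 and Scarb2 passed the filter, and none of the 3 was called higher under any single ligand. Naaa, which encodes a lipid amidase, fell from 300.3 ± 58.9 CPM in Ctrl to 127 ± 32.5 (PAM), 132 ± 19.0 (LPS) and 116 ± 24.3 (CpGB), and averaged 273 ± 21.2 with SeV and 343 ± 34.3 with cGAMP. Sdad1, Ppef2 and Fam47e did not pass the filter.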

How the data were processed

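The authors deposited 1 table of UMI counts (molecules told apart by a barcode) for each gene and library, as whole numbers; the submitters' processing notes name BWA 0.7.15 and mm10, and the counting rule is not given in the sources used here. Members and gene lists were chosen with earlier results of these data known. Columns were matched to libraries by title. Genes were kept by filterByExpr (4720 of 23481, holding 95.7% of counts), and 1 edgeR 4.0.16 quasi-likelihood fit with TMM factors (R 4.3.3) covered all libraries with 1 coefficient per group (128 residual degrees of freedom, biological coefficient of variation 10.3%). p-values were adjusted (Benjamini-Hochberg) over all tested genes in each comparison; SE is the log2 change divided by the square root of F. CPM uses TMM factors, and log2 CPM a prior count of 2. A library stood apart where its correlation with another group exceeded that with its own companions by over 0.03 and more than 2 other groups were closer than its own, or where its total exceeded 3 times the median. No 2 replicates were identical (lowest chi-square per gene 1.11). Named genes are the members, the 5 most alike by Pearson r, the fixed pathway list and the flanking genes. The fit was run on simulated data first, with an outcome that is not reported here. Alternatives were RLE factors (DESeq2's size factors), library size alone, no filter, DESeq2 1.42.0, thinning to 46564 counts, a replicate block, no fold threshold, and leaving out replicates. Ackr3 and Adgre1 were not used here, and 1 gene of the pathway list is not reported here and was left out of its counts.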

Additional observations from a re-analysis of the deposited data

How the results depend on the processing

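Among the changes recomputed, 1 that was called turned direction: Cxcl11 with HMW added to PAM+SeV, called at 1.504, was -0.32 without the 7 libraries that stood apart and -0.20 without replicate 3 of all groups, neither called. Of the summary counts under the alternatives, 335 stayed within 1.5 times the main count and 13 did not. With no fold threshold, 17 additions lowered Cxcl10 instead of 4. DESeq2 called 1 positive Cxcl10 interaction, as did the fit without the 7 libraries that stood apart. Pairs in which Cxcl10 stood above both single ligands numbered 2 without a filter on low counts, 2 without those 7 libraries, and 1 to 2 when replicate 1, 2 or 3 of all groups was left out; triplets above all 3 pairs numbered 0 to 1. Thinned to 46564 counts, Cxcl11 was higher than Ctrl in 24 conditions, raised by 13 additions and lowered by 2, so depth limits its calls. Leaving out a replicate of all groups gave 8 to 11 additions that lowered Cxcl11 and 1 to 3 negative Cxcl11 interactions. With the replicate number as a block, the conditions above Ctrl again numbered 48 for Cxcl9, 59 for Cxcl10 and 41 for Cxcl11, and no summary count changed. Same-numbered libraries of different groups shared only a weak deviation (mean r 0.0083, against -0.0041 for other numbers, with 0.116% of pairs above 0.1), although 87.0% of the libraries correlated best with their own number, a hint from the data and not from the design. The numbers were not treated as pairs. Against TMM, the median log2 change of all genes, taken as the median over the 63 comparisons with Ctrl, shifted by -0.16 with RLE factors and by -0.36 with library size.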
